A study of Mus musculus with 115 samples.

Results

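The comparison set the prostate libraries with the most transcript of Myh11, the myosin heavy chain of smooth muscle, against those with the least, after leaving out every library with transcript of Chga, a secretory granule protein of neuroendocrine cells, at 1 TPM, a unit of transcript abundance, or more. Chga was under 1 TPM in 73 libraries of the series and at or above it in the other 42. They were ranked by Myh11 TPM, the 24 highest were called smooth-muscle-rich and the 24 lowest smooth-muscle-poor, and the 25 between were kept for testing. The sides were therefore chosen on measured values. Differences between them are descriptions without a test, and Myh11 and Chga are not results.

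The libraries came from the prostate or prostate tumor of male, transgene-positive (TRAMP x WSB/EiJ) F2 mice. Each library carries its own label, but the study describes fewer sequenced mice than there are libraries here, so some mice may have given more than 1 library, and the 24 libraries of a side may hold fewer mice. W7822, the last library inside the rich side, and W78022, on the poor side with Myh11 at 78.85 TPM, have nearly alike labels, and whether they are different mice is not known. Without both, in sides of 23, 531 genes were higher and 9 lower, 13 did not overlap, and the contractile list described below had a median of 1.32 (500, 8, 12 and 1.31 with them). The TRAMP transgene drives the SV40 T antigens from the probasin promoter, which acts in prostate epithelium, so all groups described here share the oncogene, and WSB/EiJ mice descend from wild stock. The mice were kept to a common age set by the study, or killed earlier where their health required it. The labels place all libraries in 1 group, and age, tumor weight and batch of single mice were not used here. For small prostates the study's methods took RNA from the ventral prostate only, and the labels do not say which libraries those are. RNA came from bulk tissue, so fewer smooth muscle cells and less RNA per cell cannot be told apart. RNA was depleted of ribosomal RNA, sequenced with paired reads on several lanes, and deposited as TPM, a value per transcript length that sums to the same total in each library. TPM keeps no depth, and the precision from counting is unknown.

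Prostate glands are wrapped in smooth muscle, which contracts to expel secretion. In a smooth muscle cell, calcium activates myosin light chain kinase, the kinase phosphorylates the regulatory light chain, and myosin pulls on actin filaments anchored to the membrane at dense plaques. The genes of this machinery are driven together by serum response factor (Srf) with its coactivator myocardin (Myocd). Srf binds a DNA element called the CArG box. The stroma around the glands also holds fibroblasts, vessels, nerve and fat, and sends growth factors to the epithelium.

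Promoters are shown first for 3 of the 5 contractile genes that separated the sides without overlap. They were picked because their windows held a CArG box match, which the windows of the other 2, Mylk and Cald1, did not. RefSeq windows on GRCm38.p6, from 250 bases before to 50 bases after each transcript start, were found for 35 of the 39 contractile genes tested. The CArG box was searched as its consensus, in which the 6 inner bases are A or T, and also with at most 1 other inner base. The consensus reads the same on both strands. Below, capitals mark each match, with at most 1 other inner base allowed.
Acta2 (chr19:34255324-34255623, minus strand): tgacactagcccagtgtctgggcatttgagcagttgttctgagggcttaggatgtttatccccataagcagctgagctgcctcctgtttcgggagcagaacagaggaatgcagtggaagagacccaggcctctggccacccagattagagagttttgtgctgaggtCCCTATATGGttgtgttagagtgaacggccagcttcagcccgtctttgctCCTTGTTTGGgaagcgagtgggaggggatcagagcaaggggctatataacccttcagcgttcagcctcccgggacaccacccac
Myl9 (chr2:156775214-156775513, plus strand): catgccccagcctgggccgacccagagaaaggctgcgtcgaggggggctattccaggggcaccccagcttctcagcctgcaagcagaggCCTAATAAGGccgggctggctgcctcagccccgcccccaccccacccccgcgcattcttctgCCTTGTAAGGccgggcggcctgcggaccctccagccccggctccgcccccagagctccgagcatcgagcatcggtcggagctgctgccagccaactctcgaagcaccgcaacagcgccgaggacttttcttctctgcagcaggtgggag
Synm (chr7:67759693-67759992, minus strand): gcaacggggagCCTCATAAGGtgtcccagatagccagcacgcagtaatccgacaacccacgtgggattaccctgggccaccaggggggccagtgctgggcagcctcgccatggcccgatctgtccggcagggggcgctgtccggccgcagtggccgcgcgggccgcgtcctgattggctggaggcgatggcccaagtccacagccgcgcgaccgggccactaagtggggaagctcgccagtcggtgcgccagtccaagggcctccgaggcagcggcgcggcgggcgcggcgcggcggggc
Acta2 held 2 matches, whose first bases lay 84 and 34 bases before the start, Myl9 held 2 at 161 and 99 bases before it, and Synm held 1 at 239 bases before it. The 161-base match in Myl9 was to the consensus itself. Of the 35 contractile genes with a window, 6 (17.1%) held the consensus and 11 (31.4%) a match with at most 1 other base. Of the 9420 autosomal genes tested that had a window, 1.58% held the consensus and 10.7% the looser form. Counted by window, the shares were 1.63% and 9.98% of all 32851. Among the 344 genes with a window that were higher in the smooth-muscle-rich libraries by the limit given below, 5.23% held the consensus, against 1.44% of the 9076 other genes tested. For the looser form, these shares were 18% and 10.4%. The 344 genes were picked by sides drawn on Myh11 and include contractile genes, so the shares are descriptions and not a test. A match is a stretch of letters and was not tested for binding.

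Between the last libraries inside and the first outside each side, Myh11 stood at 201 and 200 TPM at the upper limit and at 125.2 and 125.5 TPM at the lower one. The highest Chga among the libraries kept was 0.81 TPM, and the lowest among those left out was 1.15 TPM. Myh11, on chromosome 16 from 14194535 to 14291372 (GRCm38), had a lowest, median and highest TPM of 201, 238 and 360 in the smooth-muscle-rich libraries, 125, 155 and 200 in the middle ones and 2.49, 94.8 and 125 in the smooth-muscle-poor ones. The name of the sides was checked with Acta2, smooth muscle actin, the other marker given for them. Acta2 was at 370, 596 and 838 TPM in the rich libraries and at 49.01, 236 and 339 TPM in the poor ones, so that no library of one side reached the other. The smooth-muscle-poor libraries were not free of muscle, as 20 of the 24 still had Myh11 at 55.5 TPM or more. Of the neuroendocrine list, 12 of 13 genes had a mean under 1 TPM over the 73 libraries. Chga is 1 of these 12, and its low level was set by the choice of libraries. Insm1 did not exceed 0.11 TPM in any of the 73 libraries.

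Differences are of mean log2(TPM + 1), rich minus poor, over the 12998 autosomal genes whose mean over the 73 libraries reached 1 TPM, Myh11 left out. Of these, 500 genes (3.85%) were higher in the smooth-muscle-rich libraries by a difference past 1, which is 2-fold on this scale, and 8 (0.0615%) were lower. Nearly the whole table shifted, since 12587 genes (96.8%) had a difference above 0 and the median over all genes was 0.45. Measured from that median, 100 genes (0.769%) were higher by over 1 and 37 (0.285%) lower. Composition moved with the sides. The 20 genes with the highest mean TPM over the whole series took a median of 62.1% in the rich and 71.2% in the poor libraries. The signal recognition particle RNA Rn7s1 had a median of 199942 against 258077 TPM. With median-of-ratios scaling, which sets the middle gene equal between libraries, the all-gene median was -0.02 and 69 genes were higher and 30 lower (69.7% of calls higher, against 98.4% in TPM). That scaling also redrew the sides, which kept 17 and 20 of their 24 libraries. List values are therefore given beside the all-gene median.

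Contractile and cytoskeletal genes were higher throughout. All 39 tested were higher in the smooth-muscle-rich libraries (as were 96.8% of all genes), 28 of them past 1 (against 3.85% of all genes). Their median difference was 1.31, or 0.86 above the all-gene median. The median of this list was 1.02 above that of all genes after rescaling without the 20 most abundant genes and 0.96 above it with median-of-ratios scaling, and it ranged from 0.61 to 1.06 over the scalings, library choices, ranking, pseudocount and side medians tried. Their summed level was 3488 to 7055 TPM in the rich libraries and 573 to 3001 TPM in the poor ones, with a middle group of 2416 to 4340 TPM.

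**Figure D1:**
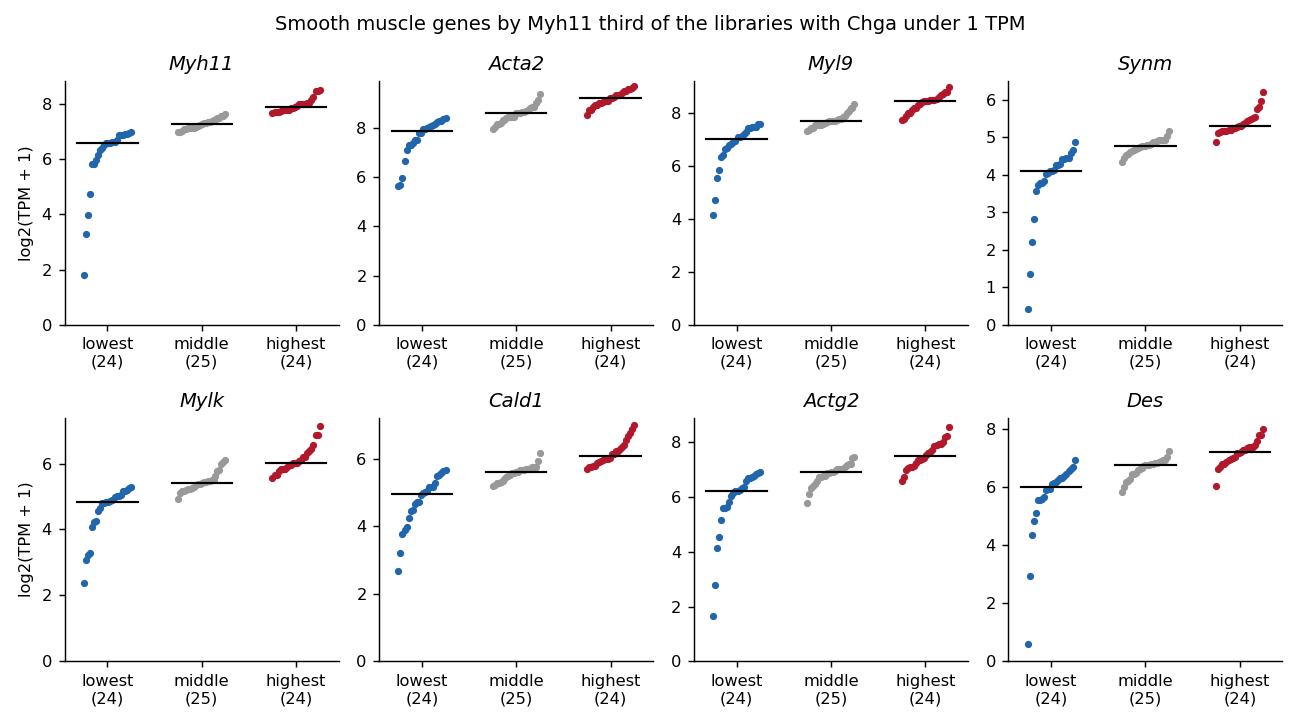
log2(TPM + 1) of 8 smooth muscle genes in each library (points) of the smooth-muscle-poor (lowest), middle and smooth-muscle-rich (highest) libraries, sorted within a group, with the group median as a bar. Acta2, Myl9, Synm, Mylk and Cald1 do not overlap between the outer groups, and the poor group has a tail of 4 libraries with Myh11 under 30 TPM.

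Of all genes tested, 12 (0.0923%) had every rich library above every poor one, and 0 had the reverse. Acta2 (chromosome 19, 34241090 to 34255590) led these genes with a mean log2 level of 9.20 ± 0.31 (SD, n = 24) against 7.57 ± 0.83 (SD, n = 24), a difference of 1.63. Myl9, the regulatory light chain of smooth muscle myosin (chromosome 2, 156775420 to 156781658), was at 212, 346 and 496 TPM against 16.8, 128 and 192 TPM, a difference of 1.62. Mylk, its kinase (chromosome 16, 34745210 to 35002420), was at 46.03, 63.9 and 141 TPM against 4.23, 27.5 and 38.1 TPM. These 3 genes are the motor's actin, its light chain and the enzyme that switches it on, and all differed by 1.59 to 1.63. Synm, the intermediate filament synemin (chromosome 7, 67730160 to 67759742), was at 28.15 TPM or more in the rich libraries and at 28.09 TPM or less in the poor ones, with medians of 38.5 and 16.2 TPM, so its sides nearly touched. Cald1, the actin-binding caldesmon (chromosome 6, 34598500 to 34775473), was at 50.99, 66.7 and 127 TPM against 5.38, 30.1 and 50.4 TPM, a difference of 1.45.

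The other 7 non-overlapping genes lie outside every list and were named after their values were seen. They were Tmem252 (difference 1.35), Tspan2 (1.14), Rbfox3 (1.13), Lims2 (1.13), Pbxip1 (1.10), Camk2g (0.95) and Bves (0.95). Lims2 is an adaptor of integrin adhesions, Camk2g a calcium-dependent kinase, Rbfox3 a splicing factor best known from neurons and Bves a membrane protein of muscle. By ratio, Bves had the widest gap of the 12, from 1.14 TPM in the highest poor library to 1.46 TPM in the lowest rich one. With median-of-ratios scaling, 1 gene in all had sides that did not overlap.

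Within the contractile list, Actg2, the enteric smooth muscle actin, had the largest difference at 1.75, with 95.7, 178 and 374 TPM against 2.16, 73.4 and 119 TPM. Reads of Acta2, Actg2 and the skeletal Acta1 may be shared, since their coding sequences are nearly identical, and their separate levels are uncertain. Pgm5, a protein of dense plaques, differed by 1.69, calponin (Cnn1) by 1.67, the tropomyosin Tpm2 by 1.58, desmin (Des) by 1.55 and transgelin (Tagln) by 1.36. Myl6, the essential light chain that other cells also use, had the highest level of the list and differed by 0.88, from a median of 514 to 900 TPM. Ppp1r14a, an inhibitor of myosin phosphatase, had the smallest difference at 0.42, with 1.76, 4.71 and 11.65 TPM against 1.02, 3.28 and 7.68 TPM, and its sides overlapped widely.

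As a list, the regulators of this program differed less than the contractile genes. Of 17 transcription regulators tested, 2 were past 1, against 3.85% of all genes. All 17 were above 0, as were 96.8% of all genes. Their median was 0.68, or 0.22 above the all-gene median and 0.20 above it with median-of-ratios scaling. Myocd had the largest difference at 1.18, with 2.36, 4.13 and 10.25 TPM against 0.13, 1.27 and 3.15 TPM, so that its sides overlapped. Meis2, a homeobox factor, followed at 1.14. At such low levels the difference depends on the pseudocount. With a pseudocount of 0.1, Myocd was at 1.75, beside 1.63 for Acta2. The regulator list then stood 0.34 and the contractile list 0.87 above the all-gene median. Srf differed by 0.76, and its partners Mrtfa and Mrtfb, which carry actin signals to the nucleus, by 0.38 and 0.28, below the all-gene median, and by -0.04 and -0.16 with median-of-ratios scaling. The visceral mesenchyme factors Barx1, Nkx2-3 and Nkx3-2 had medians of 0.06 TPM or less on both sides.

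Of 25 receptor, channel and calcium genes tested, 4 were past 1 and the median was 0.78, or 0.33 above that of all genes and 0.31 above it with median-of-ratios scaling. P2rx1, the ATP-gated channel through which sympathetic nerves contract genital smooth muscle, had the largest difference of all smooth muscle lists at 2.05, with 4.81, 18.75 and 59.7 TPM against 0.09, 3.43 and 9.61 TPM. The calcium pump Atp2b4 differed by 1.28, the chloride channel Ano1 by 1.05 and the calcium release channel Itpr1 by 1.03. Ano1 differed by 0.15 with median-of-ratios scaling. The noradrenaline receptor Adra1a was at 1.92, 3.84 and 10.8 TPM against 0.05, 1.51 and 8.75 TPM, with overlapping sides. The prostaglandin receptor Ptger3 (0.24) and Adra2a (0.03) differed least.

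Other stromal and vascular lists lay nearer to the all-gene median. Basement membrane genes had a median of 0.94, with 5 of 20 past 1, led by the collagen Col4a1 at 1.32. Pericyte and vascular mural genes had a median of 0.93, with 4 of 8 past 1, led by Mcam at 1.38. Fibroblast and interstitial matrix genes had a median of 0.87, with 9 of 30 past 1, led by elastin (Eln) and Col6a1 at 1.28 each. Decorin (Dcn), with the highest median of them in the rich libraries, was at 75.3, 153 and 860 TPM against 38.9, 93.6 and 338 TPM. Endothelial genes had a median of 0.73, with 3 of 14 past 1, led by the tight junction gene Cldn5 at 1.39. Above the all-gene median these 4 lists stood at 0.49, 0.48, 0.42 and 0.28 in TPM and at 0.35, 0.31, 0.21 and 0.18 with median-of-ratios scaling. Stromal growth factor genes had a median of 0.61, with 1 of 22 past 1, which was the Wnt amplifier Rspo3 at 1.01. Fgf7, a mesenchymal growth factor for epithelium, differed by 0.97, and Bmp7 was the only member of this list below 0, at -0.09.

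Skeletal muscle and nerve markers gave a mixed account. Of 13 skeletal muscle genes tested, 3 were past 1, Tnnc2 (1.82), Acta1 (1.65) and Ckm (1.47), and the list median was 0.33. It was -0.66 without the libraries with Akr1b7 at 100 TPM or more, which are described below, and -0.94 when these were left out under median-of-ratios scaling. The fast myosins Myh4 and Myh1 had medians of 0.05 TPM or less on both sides and reached 322 and 187 TPM in single rich libraries, and the summed list ranged from 60.4 to 4754 TPM in the rich and from 1.68 to 1508 TPM in the poor libraries. Of 7 Schwann cell and nerve genes tested, 2 were past 1, the adhesion gene Ncam1 at 1.22 and S100b at 1.04, and Sox10, which defines Schwann cells, was at 2.36 TPM or less in all 73 libraries. The part of skeletal muscle or nerve in the smooth muscle values was not tested.

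**Figure D2:**
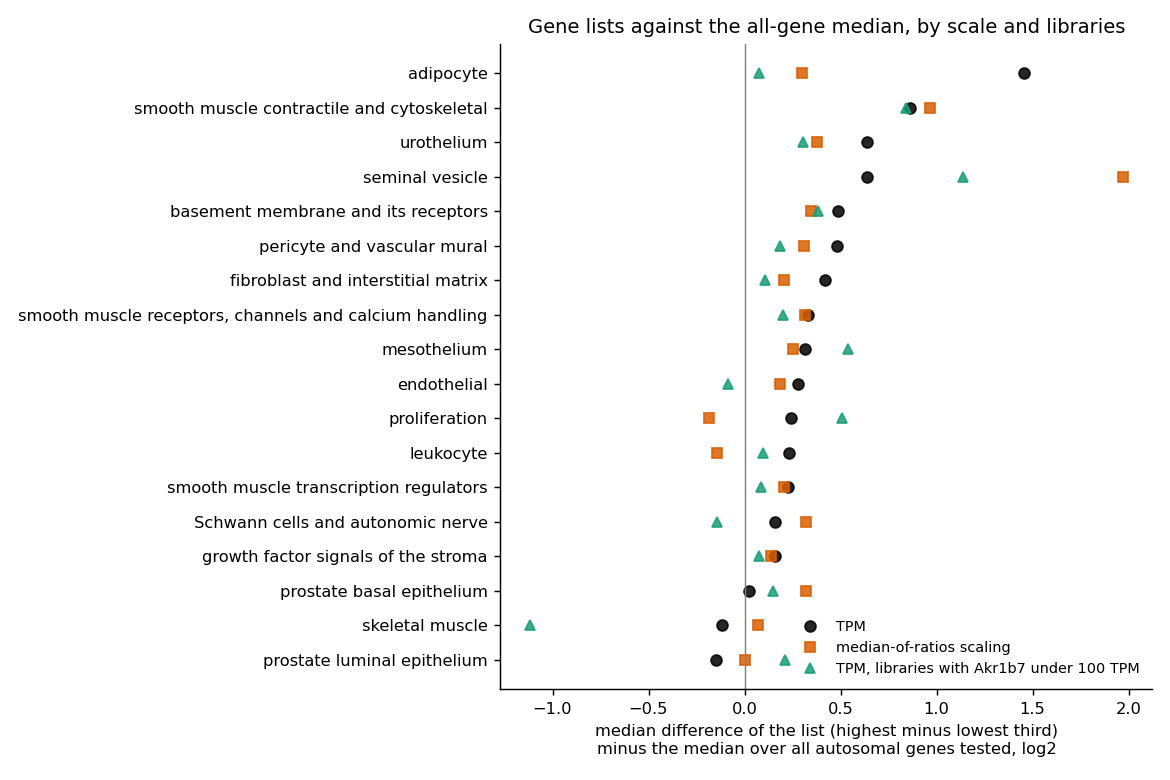
For each gene list, the median difference (smooth-muscle-rich minus smooth-muscle-poor, log2) minus the median over all autosomal genes tested, in TPM (circles), with median-of-ratios scaling (squares) and in TPM among libraries with Akr1b7 under 100 TPM (triangles). The contractile list stays between 0.84 and 0.96 above the all-gene median in these 3 settings, while the adipocyte list goes from 1.45 to 0.30 and 0.08.

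The largest differences of all were not of muscle genes. Among named protein-coding genes outside the lists, Akr1b7, an aldo-keto reductase abundant in the mouse vas deferens, led with 3.57, from a median of 2.22 TPM in the poor to 916 TPM in the rich libraries. Next came the water channel Aqp2 (2.54), the inducible cyclooxygenase Ptgs2 (2.53), the efflux transporter Abcg2 (2.47), Thrsp (2.31), Serpina1f (2.31), Wfdc15b (2.30), Ucp1 (2.27), Spink8 (2.26) and Defb42 (2.12). Akr1b7 reached 100 TPM in 13 of 24 rich, 9 of 25 middle and 6 of 24 poor libraries. In the rich libraries, Aqp2 was at 12.4 TPM or more in those 13 and at 0.95 TPM or less in the other 11, and Serpina1f at 35.7 TPM or more and at 0.53 TPM or less. Crisp1, which the luminal list held and which is best known from the epididymis, followed the same split, at 240 TPM or more and at 3.14 TPM or less.

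**Figure D3:**
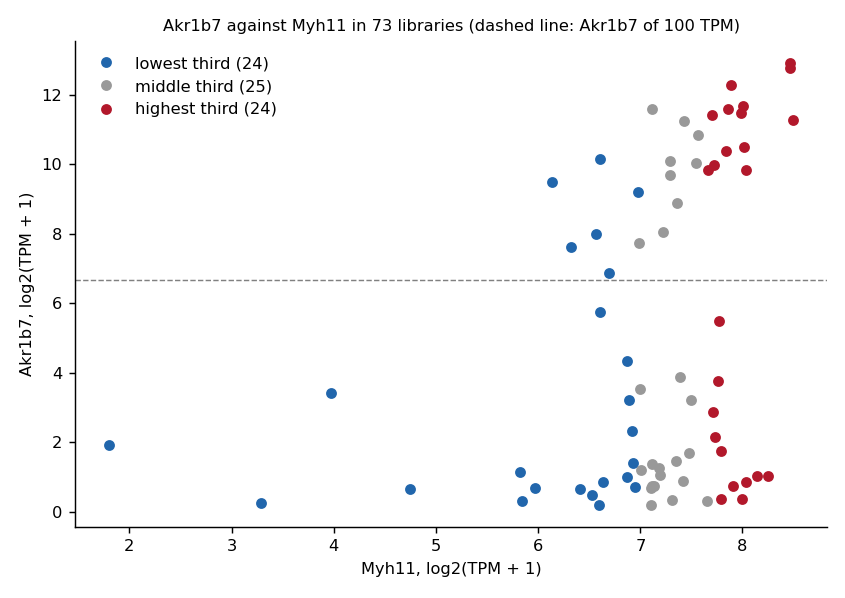
Akr1b7 against Myh11, both as log2(TPM + 1), in the 73 libraries with Chga under 1 TPM, coloured by side, with a dashed line at 100 TPM of Akr1b7. Libraries above the line occur on both sides and in the middle, 13, 6 and 9 of them in the rich, poor and middle groups.

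When the 28 libraries with Akr1b7 at 100 TPM or more were left out and sides of 15 were drawn from the rest, the contractile list stood 0.84 above the all-gene median, with Acta2 at 1.90 and Myl9 at 1.78, and 12 genes did not overlap. Aqp2, Serpina1f and Crisp1 then turned to -0.067, -0.15 and -1.22. Fat genes varied with Akr1b7. All 10 adipocyte genes were past 1 in the full comparison, with a median of 1.91, led by the lipid carrier Fabp4 at 2.04 and the lipid droplet gene Plin4 at 2.03. Adiponectin (Adipoq) was at 0.07, 52.3 and 283 TPM against 0.09, 7.55 and 155 TPM, so the sides overlapped over most of their range. In the rich libraries it was at 13.5 to 283 TPM in the 13 with Akr1b7 at 100 TPM or more and at 0.07 to 114.7 TPM in the other 11. In the middle libraries, Adipoq was at 2.04 to 164 TPM with Akr1b7 at 100 TPM or more and at 0.02 to 280 TPM under it. The medians were 23.9 and 2.58 TPM. In the poor libraries, these ranges were 5.79 to 155 TPM and 0.09 to 85.2 TPM, with medians of 40.8 and 3.34 TPM. The adipocyte list stood 1.45 above the all-gene median in the full comparison, 0.18 when ranked by Acta2 and 0.47 with Chga under 0.5 TPM. Without the Akr1b7 libraries, this list stood 0.08 above the all-gene median. In the same setting, basement membrane genes stood at 0.38, pericyte genes at 0.18, fibroblast genes at 0.11 and endothelial genes at -0.08 from the all-gene median. What places Akr1b7 and fat genes in some libraries was not tested.

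In TPM, the epithelial lists lay near the all-gene median. Prostate luminal genes had a median of 0.31, below the all-gene median of 0.45, with 2 of 23 past 1 in the rich direction (Crisp1 at 2.26, and Msmb at 1.54 but -0.028 with median-of-ratios scaling) and 1 in the other (Sbp). The secretory transglutaminase Tgm4 had medians of 5764 and 7448 TPM. Basal genes had a median of 0.48, with 0 of 10 past 1. Their list stood 0.02 above the all-gene median in TPM but 0.32 above it with median-of-ratios scaling. Markers of neighbouring organs were higher in parts of the rich libraries. Of 8 seminal vesicle genes tested 5 were past 1, with a summed level of 10.7 to 173260 TPM against 1.92 to 88753 TPM. Their median stood 0.64 above the all-gene median in TPM. With median-of-ratios scaling it stood 1.97 above, beyond the contractile list at 0.96, but by side medians in TPM it was at -0.24. The urothelial Psca and Upk1b differed by 1.68 and 1.28. Leukocyte genes had a median of 0.68, with 0 of 14 past 1. Proliferation genes had a median of 0.70, with 2 of 22 past 1, led by the replication helicase gene Mcm6 at 1.21 (-0.21 with median-of-ratios scaling). Against the all-gene median, leukocyte and proliferation lists stood at 0.23 and 0.24 in TPM and at -0.15 and -0.19 with median-of-ratios scaling, so their direction depended on the scale. Of the study's 12 candidate modifier genes tested, 0 were past 1, and their median was 0.20. That list was chosen by the study on these samples.

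Of the 8 genes lower in the smooth-muscle-rich libraries, the secretory ones rested on few libraries. Sbp, the spermine-binding protein of ventral prostate secretion, had the largest such difference at -1.72, yet its medians were 0.61 TPM in the rich and 0.50 TPM in the poor libraries. It reached 100 TPM in 3 rich and 7 poor libraries, and the poor libraries W5005 and W5000 held 92090 and 46295 TPM. Its relative Sbpl followed at -1.61, with 13181 TPM in W5005. Scgb2b27 (-1.46), a secretoglobin, was at 25241 TPM in the poor library W1154 and at 463 TPM in the next poor library. Without the 4 libraries with Myh11 under 30 TPM its difference was -0.49. The remaining 5 lower genes were the histone gene Hist1h4m (-1.24), the pseudogenes Tpt1-ps3, Gm15501 and Gm6436, and the annotated miRNA gene Gm44313 (-1.13). Gm44313 had medians of 0 TPM in the rich and 7.07 TPM in the poor libraries and similar highest values, 18.75 and 24.1 TPM. Medians differed little for Hist1h4m (201 TPM rich, 215 TPM poor), Gm15501 (272 and 287 TPM) and Gm6436 (200 and 215 TPM). Hist1h4m was at 0 TPM in 5 rich and 2 poor libraries. Tpt1-ps3 had medians of 0 and 0.005 TPM and was highest in W5000 and W5005, at 237 and 176 TPM.

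The 4 libraries with Myh11 under 30 TPM stood apart from the rest of the poor side. Myh11 was at 25.9 TPM in W4183, 14.7 TPM in W4165, 8.79 TPM in W1154 and 2.49 TPM in W1118. In W1154, desmin was at 0.52 TPM and the mucin-like secretory gene Mucl2 at 239393 TPM, while no other poor library passed 7.99 TPM of Mucl2. W1118 was the only one of the 73 libraries in the smaller of the 2 parts into which the first principal component separates the series, a part that holds 35 of the 42 libraries with Chga at 1 TPM or more. It had Chga at 0.15 TPM and Insm1 at 0.11 TPM, but Foxa2 at 44.1 TPM, Prox1 at 42.4 TPM and Mki67 at 57.9 TPM. In the other 20 poor libraries outside these 4, the highest values of these 3 genes were 0.04, 0.38 and 10.6 TPM. With libraries under 30 TPM of Myh11 left out and sides of 23 drawn again, 513 genes were higher and 19 lower, 12 did not overlap, and the contractile list stood 0.62 above the all-gene median, with Acta2 at 1.27.

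Libraries that placed no value on either side were then tested with limma, as slopes of log2(TPM + 1) on log2(Myh11 TPM + 1) with Benjamini-Hochberg adjustment over all 12998 genes. Over the 25 middle libraries, whose Myh11 ran from 125 to 200 TPM, 0 genes had a positive and 0 a negative slope (0.0% each), with a smallest adjusted p of 0.535 in limma. At an unadjusted p under 0.05, limma gave 157 positive and 120 negative slopes. Of the 39 contractile genes, 38 had a slope above 0 and 19 of these an unadjusted p under 0.05, and the list's median slope was 0.67, beside -0.22 over all genes. Tpm2 had a slope of 1.05 ± 0.22 (SE), Mylk of 1.00 ± 0.26 and Acta2 of 0.89 ± 0.34, and none passed the adjustment. In data simulated with the means and spread of these 25 libraries, limma called 9 of 50 genes with a slope of 1 and 12 of 50 with -1. It called 40 of 50 with 2 and 40 of 50 with -2, so slopes near 1 were mostly missed. In the real middle libraries, median slopes were 0.59 for fibroblast genes, -1.78 for adipocyte genes, 5.20 for seminal vesicle genes and -1.22 for proliferation genes. Again 0 genes passed the adjustment. With median-of-ratios scaling, which draws other middle libraries, the adipocyte median was 2.46, with 10 of 10 slopes above 0 against 0 of 10 in TPM, so its direction depended on the scale or on the libraries drawn.

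The 42 libraries with Chga at 1 TPM or more gave positive slopes for 34.8% of genes and negative slopes for 28.5% by limma, but they fall into the 2 parts of the first principal component, 7 and 35, and the pooled slopes join the difference between the parts to the relation with Myh11. Within the 35, whose Myh11 ran from 0.16 to 90.7 TPM with a median of 1.05, 1128 genes (8.68%) had a positive and 89 (0.685%) a negative slope. Of the contractile genes, 27 of 39 had a positive slope there and 0 a negative one. Acta2 had a slope of 0.98 ± 0.10 (limma, adjusted p = 1.17e-08), Cnn1 of 0.93 ± 0.05 (adjusted p = 2.81e-17), Des of 0.83 ± 0.06 (adjusted p = 9.99e-14) and P2rx1 of 0.44 ± 0.03 (adjusted p = 2.55e-12). The phosphatase subunit Ppp1r12b (-0.01, adjusted p = 0.943) and the kinase Prkg1 (-0.01, adjusted p = 0.984), which relax smooth muscle, did not pass in limma, nor did Myocd (0.14, adjusted p = 0.0505). Markers of other tissue moved in the same libraries. Positive slopes were found for 11 of 13 skeletal muscle, 9 of 10 adipocyte, 12 of 23 luminal and 14 of 30 fibroblast genes, and negative ones for 3 of 22 proliferation genes, and their part in the muscle slopes was not tested.

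The count of calls, more than the slopes of the muscle genes, depended on 2 libraries, with 37.8 and 90.7 TPM of Myh11. Without them, in 33 libraries up to 20.7 TPM, 90 genes (0.692%) had a positive and 0 (0.0%) a negative slope in limma, with 1534 positive and 58 negative slopes at an unadjusted p under 0.05. Of the 90, 18 were contractile genes, 6 adipocyte, 6 fibroblast, 2 basal, 2 receptor or channel, 2 endothelial and 1 skeletal muscle genes, among other lists, and 0 were luminal genes. The median contractile slope was 0.29 without these libraries and 0.31 with them, and that of fibroblast genes 0.55 and 0.35. Acta2 (1.14 ± 0.15, limma adjusted p = 7.23e-06), Actg2 (1.18 ± 0.07, 3.80e-13), Tagln (1.13 ± 0.13, 1.04e-06) and Mylk (0.54 ± 0.05, 4.07e-08) were among them. Over the other 7 libraries, with Myh11 from 124 to 439 TPM, limma called 0 genes. At an unadjusted p under 0.05, it gave positive slopes for 3.78% and negative slopes for 3.55% of genes. There 36 of the 39 contractile slopes were above 0, with a list median of 0.69, beside -0.10 over all genes. So were 29 of 30 fibroblast, 14 of 14 endothelial and 10 of 10 adipocyte slopes, but only 6 of 23 luminal and 0 of 13 skeletal muscle slopes.

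**Figure D4:**
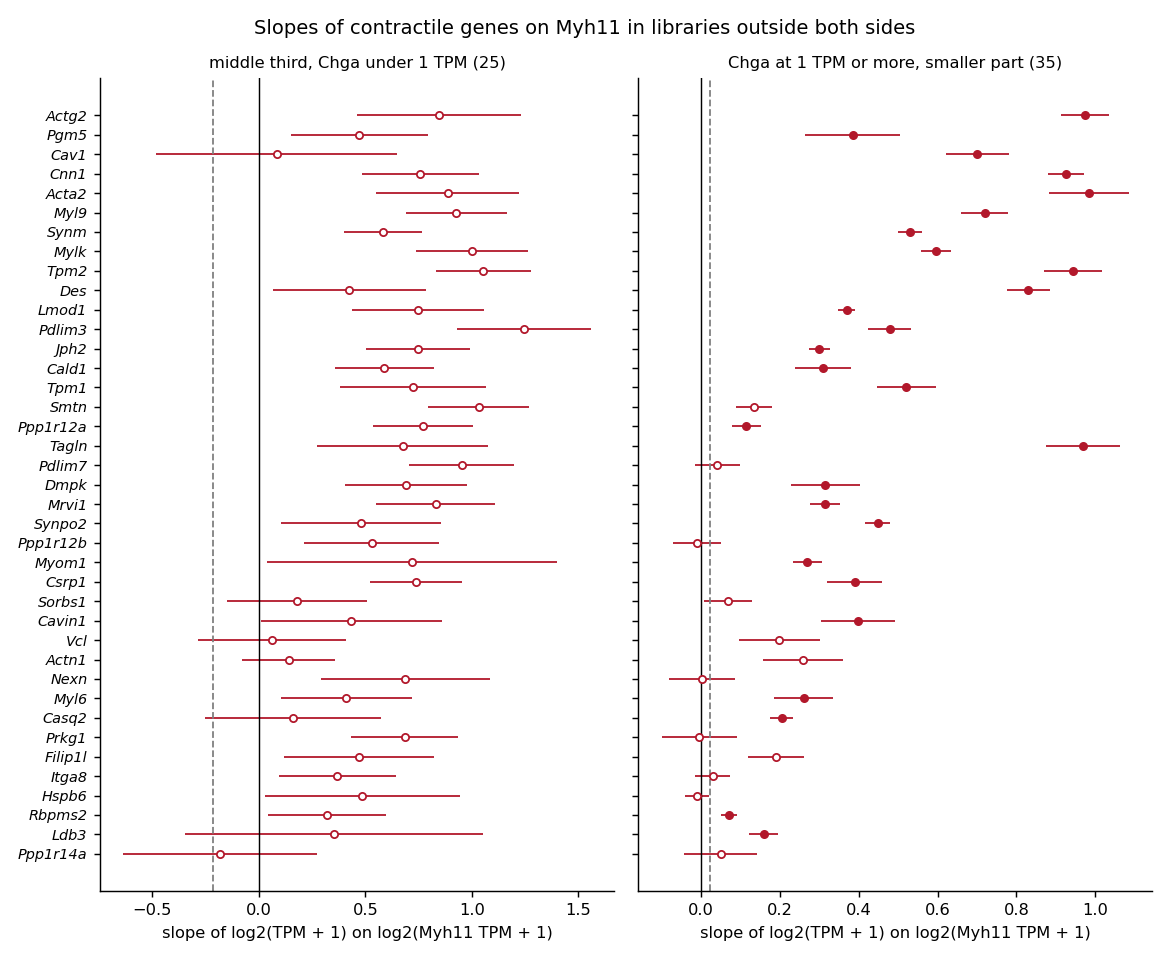
Slopes of the 39 contractile genes on Myh11 (points, with the standard error as bars) in the 25 middle libraries (left) and in the 35 libraries with Chga at 1 TPM or more of the smaller part (right), ordered by the difference between the sides. Filled points have an adjusted p under 0.05, which 0 genes have on the left and 27 on the right, and dashed lines give the median slope of all genes, -0.22 and 0.02.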

How the data were processed

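Total RNA of snap-frozen bulk tissue was depleted of ribosomal RNA and sequenced by the authors, who trimmed reads with Trimmomatic, mapped them with Bowtie2 2.2.5 to an allele-specific C57BL/6 and WSB transcriptome (GRCm38, Seqnature), quantified them with RSEM 1.2.20 and deposited TPM values, 1 column per library. Their gene annotation is not given in the sources used here. TPM scales each library to 1 total, so a few very abundant RNAs lower all other values, and read depth is lost. Genes were matched to GENCODE M21 (45136 of 45699). Libraries were chosen by Chga and Myh11 TPM as described above, with the members, lists and tests chosen with earlier results of these data known. Each library has its own label, and whether each is a separate mouse is not known, so p-values measure the spread between libraries. Differences are of mean log2(TPM + 1) over autosomal genes whose mean reached 1 TPM. Named genes were the list members, the 10 largest and 10 smallest differences among named protein-coding genes outside the lists. The genes without overlap, the other genes lower by over 1 and the values of single low libraries were added after their values were seen. Slopes on log2(Myh11 TPM + 1) were fitted with limma 3.58.1 (R 4.3.3), with an intensity trend and Benjamini-Hochberg adjustment, and the steps were tested on simulated data. The 2 parts of the series were separated on the first principal component with scikit-learn 1.9.0. Scaling, gene filter, pseudocount, limits and libraries were varied. Some genes are not reported here.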

Additional observations from a re-analysis of the deposited data

How the results depend on the processing

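The count of genes higher and lower past 1 (500 and 8 in TPM) was 231 and 32 after rescaling without the 20 most abundant genes, 69 and 30 with median-of-ratios scaling, 260 and 15 with Chga under 0.5 TPM, 1394 and 30 with a pseudocount of 0.1, 3208 and 35 past a 1.5-fold difference and 25 and 0 past a log2 difference of 2. Genes lower numbered 17 when ranked by Acta2, 19 with Myh11 at 30 TPM or more, and 32 with Akr1b7 under 100 TPM, and with the last together with median-of-ratios scaling 67 were higher and 42 lower. Genes without overlap (12) numbered 1 under each rescaling and that combination, 5 with Chga under 2 TPM and 57 with 18 libraries a side. With median-of-ratios scaling list medians were 0.19 for regulators, 0.30 for receptors and channels, 0.29 for pericyte, 0.33 for basement membrane, 0.12 for growth factor and -0.16 for leukocyte genes, and the Schwann list was at 1.34 with a pseudocount of 0.1. With median-of-ratios scaling and Akr1b7 under 100 TPM, they were 0.18 for regulators, 0.34 for receptors and channels, 0.10 for pericyte, 0.0068 for endothelial, 0.059 for fibroblast, 0.20 for basement membrane, 0.11 for growth factor, -0.0044 for Schwann, -0.22 for leukocyte and -0.29 for proliferation genes, skeletal muscle genes were at -0.94 (0.33 in TPM with all libraries), and adipocyte genes turned to -0.15. Single genes turned as follows. With median-of-ratios scaling Anpep was at -0.26, Msmb at -0.028, Mcm5 at -0.083 and Mcm6 at -0.21, and ranked by Acta2 Hist1h4m was at 0.42. With Akr1b7 under 100 TPM Aqp2 was at -0.067, Serpina1f at -0.15 and Crisp1 at -1.22. With both, Akr1b7 was at -0.72, Aqp2 at -0.19, Ptgs2 at -0.031, Thrsp at -0.028, Serpina1f at -0.24, Anpep at -0.021, Egfl7 at -0.066, Col3a1 at -0.12, Ccdc80 at -0.035, Ckm at -0.24, S100b at -0.11, Adipoq at -0.29, Fabp4 at -0.60, Cidec at -0.37, Lep at -0.10, Lipe at -0.042, Retn at -0.19, Cfd at -0.54, Msmb at -0.030, Crisp1 at -1.44, Mcm5 at -0.25 and Mcm6 at -0.24. In the libraries with Chga at 1 TPM or more, limma gave 7492 negative slopes with no filter on low values, 1128 positive and 89 negative in the smaller part, 1218 and 159 there with median-of-ratios scaling, 90 and 0 there without 2 libraries, and 0 and 0 in the larger part. The cause of these moves was not tested beyond the change each setting makes. Of the other summary values, 319 moved by less than the limits set for them. Settings on Akr1b7, Myh11 at 30 TPM, W7822 and W78022 and the parts within the Chga libraries were chosen after seeing the data. No paired analysis was possible because all samples share 1 group. Depth is unknown, and no interval from counting could be given.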
